A study of Mus musculus with 6 samples.

Results

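The mitochondrial carriers of the Slc25 family were examined in a comparison between CDH1+ and CDH1- cells from germline stem cell cultures of male mice. The members were chosen by gene symbol: every protein-coding gene of GENCODE M21 named Slc25a with a number whose Ensembl identifier had a row in the authors' deposited table. This gave 46 of the 22432 genes of the table, and of the 47 such genes in the annotation only Slc25a54 was not analysed here. No measured value entered the choice of single genes, but the family was proposed with results of this same comparison in view. The fold changes and calls of its members are therefore given as a description and support no statement about the family as such.

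Total RNA had been sequenced from 3 CDH1+/THY1+ and 3 CDH1-/THY1+ samples. CDH1 is the adhesion molecule E-cadherin and THY1 a surface glycoprotein used to enrich germline stem cells. In each population the samples carried the culture names RP7 (strain label OCT4/GFP; Dox-OCT4, age 8 weeks), RP5 (the same strain label, age 19 days) and WT1 (C57BL/6, age 5 weeks), so population was crossed with culture. All cells were at passage 6 to 8 and had been kept on DR4 feeder fibroblasts in a medium with GDNF and FGF, with added pyruvic and lactic acid. The mean counts, fold changes, standard errors and adjusted p-values below are those of the authors' deposited table unless stated otherwise, and each fold change is that of CDH1+/THY1+ over CDH1-/THY1+ cells. The direction rests on the name of that table: Cdh1, the gene of the sorted protein, was not analysed here and gives no check of it. Read in this direction, 12 of 15 germ cell markers were lower in CDH1+/THY1+ cells and 8 of 16 fibroblast markers higher. Whether the direction is right was not tested, and if it were reversed every higher and lower below would swap. A gene was called higher or lower at an adjusted p-value under 0.05 by DESeq2. Size factors of the libraries, recovered from the low mean counts, lay between 0.913 and 1.08, so the libraries had been scaled by similar amounts, but the total count per sample is unknown.

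Slc25 carriers are proteins of the inner mitochondrial membrane, with a few in other membranes, that exchange nucleotides, phosphate, amino acids, carboxylates, coenzymes and metals between the cytosol and the matrix. They are encoded in the nucleus and reach the membrane through the TIM22 import route. By moving ADP in and ATP out, and reducing equivalents across as malate and aspartate, they tie oxidative phosphorylation to the metabolism of the cytosol. In the male germline the family is known above all for the testis-enriched ADP/ATP carrier Slc25a31, also called Ant4, which mouse spermatocytes need to complete meiosis.

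Most of the called carriers were higher in CDH1+/THY1+ cells. Of the 45 members with an adjusted p-value, 17 were higher and 4 were lower, beside 17.1% of all genes called higher and 16.4% called lower in the authors' deposited table. The 17 higher carriers were Slc25a1, Slc25a3, Slc25a4, Slc25a5, Slc25a11, Slc25a12, Slc25a13, Slc25a16, Slc25a17, Slc25a24, Slc25a28, Slc25a30, Slc25a36, Slc25a37, Slc25a38, Slc25a40 and Slc25a46, and the 4 lower were Slc25a25, Slc25a31, Slc25a32 and Slc25a33. At least 2-fold were 5 of the higher carriers and 1 of the lower, beside 7.47% and 6.54% of all genes. The called carriers all lay among the 32 members with a mean normalised count of at least 100, and among all genes of such counts 22.6% were called higher and 21.7% lower. None of the 14 members with lower counts was called. With the Benjamini-Yekutieli adjustment 11 of the 21 calls held, and the 10 that did not (Slc25a3, Slc25a11, Slc25a16, Slc25a24, Slc25a25, Slc25a28, Slc25a32, Slc25a36, Slc25a38 and Slc25a46) had adjusted p-values of 0.0912 to 0.624 under it. The median log2 fold change of the 46 members was 0.37 (quartiles -0.21 and 0.69), beside 0.01 for all genes with a p-value.

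**Figure D1:**
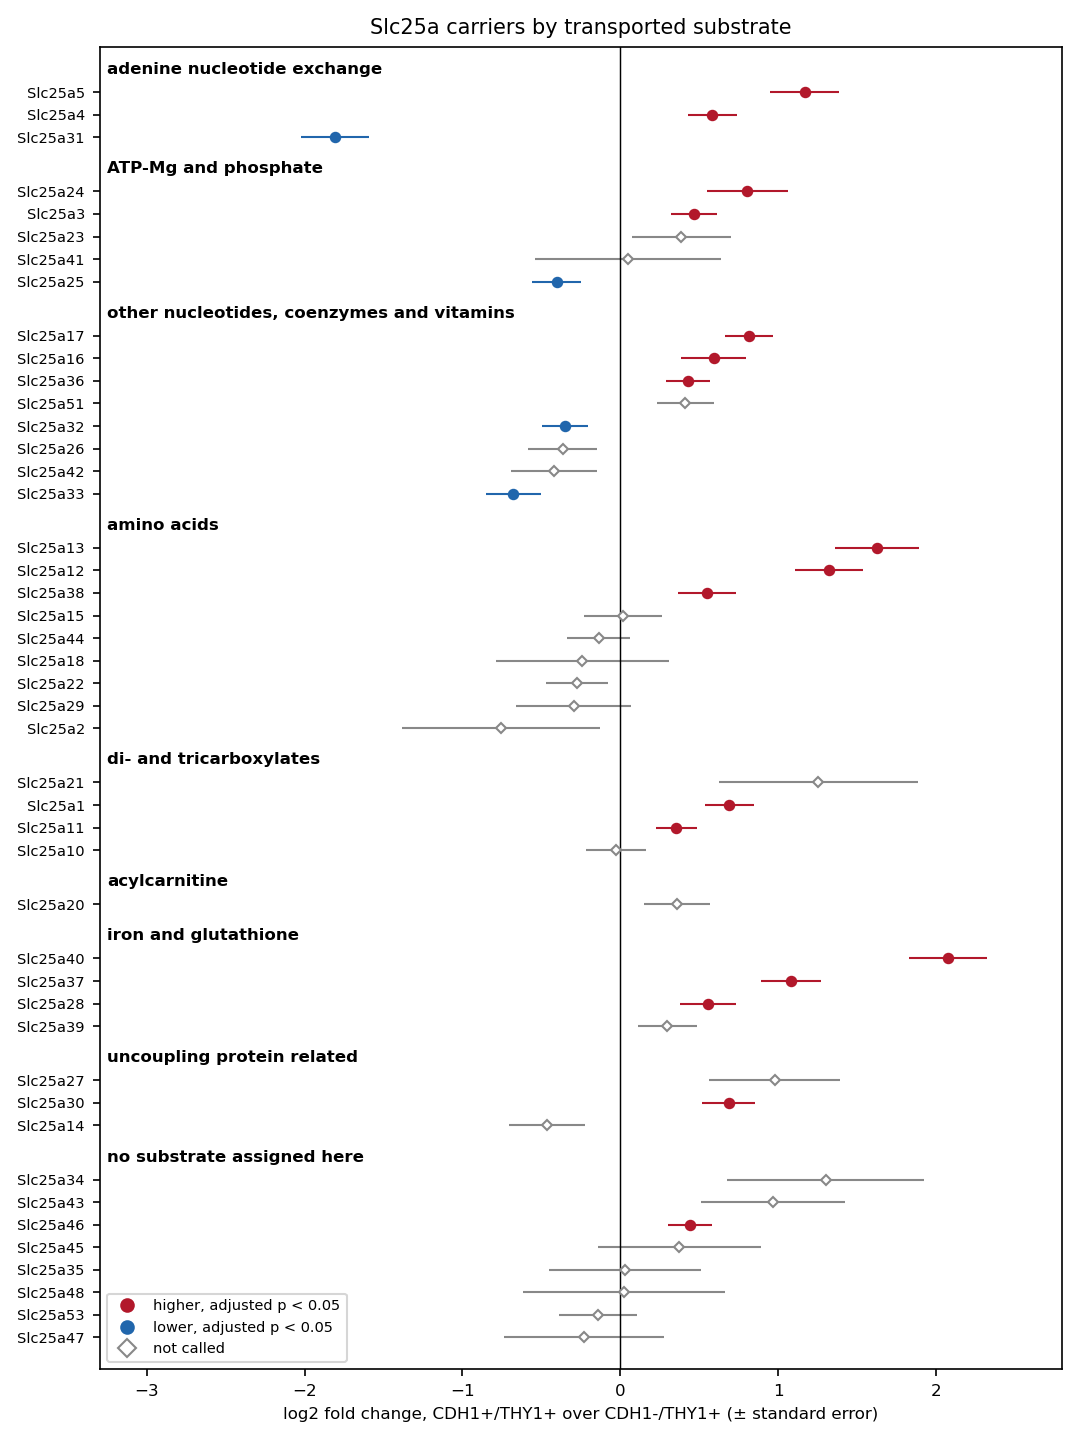
Each point is the log2 ratio of CDH1+/THY1+ to CDH1-/THY1+ cells for a Slc25a carrier, from the authors' deposited table, with its standard error as a bar, grouped by transported substrate. Filled red circles are the 17 carriers called higher, filled blue circles the 4 called lower, and open grey diamonds members without a call, of which 1 is not shown; Slc25a31 stands alone at -1.81 and Slc25a40 lies farthest to the right at 2.08.

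Carriers of the same substrate, ADP and ATP, went in opposite directions. Slc25a31 (ENSMUSG00000069041, chromosome 3, 40708855 to 40726096 in GRCm38), the germ cell carrier, was 3.51-fold lower in CDH1+/THY1+ cells (log2 -1.81 ± 0.21, standard error, adjusted p = 2.45e-15, the authors' deposited table). Slc25a5 (ENSMUSG00000016319, chromosome X, 36795651 to 36798807), known as Ant2 and the main form of dividing cells, was 2.25-fold higher (log2 1.17 ± 0.22, adjusted p = 1.28e-06, the authors' deposited table). Slc25a4 (ENSMUSG00000031633, chromosome 8, 46206797 to 46211284), the form of heart and skeletal muscle known as Ant1, was 1.5-fold higher (log2 0.58 ± 0.16, adjusted p = 0.00107, the authors' deposited table). As levels, taken over both populations together and divided by exon length, Slc25a5 had 2925 normalised counts per kilobase, Slc25a4 2003 and Slc25a31 1230. Slc25a31 made up 21.5% of the summed mean counts of the ADP/ATP carriers, and ranked 221st from the bottom in fold change among all genes with an adjusted p-value. No SD belongs to these levels, since they come from the authors' mean over the 6 libraries.

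Among markers of cell types, most germ cell genes were lower and part of the fibroblast genes higher, where 17.1% of all genes were called higher and 16.4% lower. Of 15 germ cell markers, 12 were lower, 3 were not called and none was higher in CDH1+/THY1+ cells, with a median log2 fold change of -1.15 and mean counts up to 14797 for Dazl in the authors' deposited table. Fibroblasts were the feeder cells of the culture, and of their 16 markers 8 were higher, 8 were not called and none was lower, with a median of 0.86 and mean counts up to 89729 for the collagen gene Col3a1, itself not called, in the authors' deposited table. Of 8 Sertoli cell markers with a row, Clu and Kitl were higher and none was lower, and mean counts ran from 2.27 for Amh, over 67.1 for Sox9 and 72.8 for Wt1, to 1582 for Clu by the authors' deposited table. Of 7 meiotic and spermatid markers with a row, 4 were lower and none was higher, with a median of -1.23, and Sycp3, a gene of the meiotic chromosome axis, was 3.2-fold lower (log2 -1.68 ± 0.19, adjusted p = 1.33e-16, the authors' deposited table). Over both populations together, mean counts summed to 351037 for the 16 fibroblast markers and 49851 for the 15 germ cell markers, not divided by exon length. The carrier values are thus those of samples with much RNA of fibroblast marker genes, not of germ cells alone. Summed marker levels in each population were not analysed here, because the columns hold only the comparison. The part of these markers in the fold changes of the carriers was not tested, and in bulk RNA fewer cells of a type cannot be told apart from less RNA per cell.

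The starts of the ADP/ATP carriers are printed because these carriers of the same substrate were called in opposite directions, and that of Slc25a40 because its fold change was the highest of the family. Each window runs from 250 bases before to 50 bases after the RefSeq start in GRCm38.p6, 5′ to 3′ on the gene's strand. The window of Slc25a5 ends at 36795646, before the GENCODE M21 start of that gene at 36795651. Bases near its end were in no GENCODE transcript of Slc25a5, while those of the other windows were in transcripts of their genes. Capitals mark matches, on either strand, to GCGGGAA (letters of E2F-type sites), GCATGCGC (letters of NRF1-type sites) or CACGTG (an E-box).
Slc25a31 (chr3:40708621-40708920, plus strand): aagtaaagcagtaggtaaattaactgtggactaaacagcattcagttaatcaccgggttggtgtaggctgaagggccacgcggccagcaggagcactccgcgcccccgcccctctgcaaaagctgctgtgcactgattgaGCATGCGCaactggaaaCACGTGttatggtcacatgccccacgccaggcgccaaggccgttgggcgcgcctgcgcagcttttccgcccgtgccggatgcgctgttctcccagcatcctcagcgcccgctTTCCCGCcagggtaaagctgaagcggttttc
Slc25a4 (chr8:46211013-46211312, minus strand): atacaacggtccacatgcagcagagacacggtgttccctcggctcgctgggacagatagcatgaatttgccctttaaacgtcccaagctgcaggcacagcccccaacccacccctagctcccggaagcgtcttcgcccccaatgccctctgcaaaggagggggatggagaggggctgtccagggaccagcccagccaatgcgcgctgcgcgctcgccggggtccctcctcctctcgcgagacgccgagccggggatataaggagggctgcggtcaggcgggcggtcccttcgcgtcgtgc
Slc25a5 (chrX:36795347-36795646, plus strand): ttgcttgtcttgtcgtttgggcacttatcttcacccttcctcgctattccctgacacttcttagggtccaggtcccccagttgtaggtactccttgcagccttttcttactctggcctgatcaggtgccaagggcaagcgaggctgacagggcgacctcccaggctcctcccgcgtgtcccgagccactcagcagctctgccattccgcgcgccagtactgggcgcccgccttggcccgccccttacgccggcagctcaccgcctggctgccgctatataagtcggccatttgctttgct
Slc25a40 (chr5:8422588-8422887, plus strand): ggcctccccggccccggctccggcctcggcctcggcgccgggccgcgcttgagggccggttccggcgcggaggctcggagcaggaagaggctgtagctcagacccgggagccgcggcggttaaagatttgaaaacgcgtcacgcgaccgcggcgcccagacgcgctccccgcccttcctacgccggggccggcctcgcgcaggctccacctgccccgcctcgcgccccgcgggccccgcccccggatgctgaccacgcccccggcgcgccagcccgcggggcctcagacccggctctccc

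The window of Slc25a31 held a match to each of the 3 marked motifs, and those of Slc25a4, Slc25a5 and Slc25a40 held none. Other motifs were searched but not marked. Of these, GGGCGG was in every printed window, and CCAAT in that of Slc25a4 but not in the other printed windows. In Slc25a31 the match to GCATGCGC began 110 bases before the start, that to CACGTG 93 bases before it, and that to GCGGGAA at base 20 after it. Among all 32851 windows of the table, 4.6% held GCGGGAA, 2.71% GCATGCGC and 7.15% CACGTG. Windows were matched for 35 members, with 45 windows in all. GCGGGAA was in those of Slc25a11 and Slc25a31, GCATGCGC in that of Slc25a31 alone, and CACGTG in 8 windows of 7 members. Those 7 were Slc25a1, Slc25a13 and Slc25a36, which were called higher, Slc25a31 and Slc25a33, which were called lower, and Slc25a14 and Slc25a15, which were not called. Of 4 further motifs searched in the windows, TGACGTCA (a cyclic AMP response element) stood in those of Slc25a25 and Slc25a36 and in 1.79% of all windows, and TATAAA in those of Slc25a18 and Slc25a21 and in 13.6% of all windows. Both strands were searched in every case. The letters GGGCGG were in 38 of the 45 member windows, from 30 members, and CCAAT in 22, from 19 members. The shares of all windows were 35.7% and 37.4%. These matches describe the letters of the windows and nothing about binding. The dinucleotide CG occurred 22 times in the window of Slc25a31, 25 times in that of Slc25a4, 18 times in that of Slc25a5 and 47 times in that of Slc25a40. Its median was 15 over the member windows and 7 over all windows. The windows of the whole set, from 27025 gene symbols, were not limited to protein-coding genes as the members were. They are therefore no matched background for the shares or this median.

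Among carriers of phosphate and of ATP bound to magnesium, 2 of 5 were higher and 1 was lower, beside 17.1% and 16.4% of all genes. Slc25a3, the phosphate carrier that supplies ATP synthase, was 1.38-fold higher (log2 0.47 ± 0.15, adjusted p = 0.00674, the authors' deposited table). Its level over both populations was 846 normalised counts per kilobase, below that of Slc25a4 and Slc25a31 and above that of Slc25a24. Slc25a24, a calcium-regulated exchanger of ATP-Mg for phosphate, was 1.75-fold higher (log2 0.81 ± 0.26, adjusted p = 0.0072, the authors' deposited table). Its relative Slc25a25, of the same function, was 1.32-fold lower (log2 -0.40 ± 0.16, adjusted p = 0.033, the authors' deposited table). Slc25a24 and Slc25a25 had like mean counts, 642 and 645, while the fold changes of the remaining relatives Slc25a23 (0.39 ± 0.31, mean count 98.3) and Slc25a41 (0.05 ± 0.59, mean count 6.32) in the authors' deposited table were not called. Exons of Slc25a25 overlap those of Naif1 on the opposite strand over 379 bases, 4.82% of its exon length, and it is not known whether the counting used strand.

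The aspartate/glutamate carriers rose together. Slc25a13, or citrin (ENSMUSG00000015112, chromosome 6, 6041218 to 6217173), was 3.09-fold higher (log2 1.63 ± 0.27, adjusted p = 2.52e-08, the authors' deposited table). Slc25a12, or aralar (ENSMUSG00000027010, chromosome 2, 71271063 to 71367749), was 2.51-fold higher (log2 1.33 ± 0.22, adjusted p = 1.6e-08, the authors' deposited table). Both export aspartate from the matrix in exchange for glutamate, a step of the malate-aspartate shuttle. The oxoglutarate/malate exchanger of that shuttle, Slc25a11, was 1.28-fold higher (log2 0.36 ± 0.13, adjusted p = 0.0224, the authors' deposited table), and 189 bases of its exons overlap Rnf167 on the opposite strand. Per kilobase, Slc25a11 had 507 normalised counts over both populations, Slc25a13 260 and Slc25a12 98.6. The standard error of Slc25a13 was larger than that of 94% of genes of like mean count, and that of Slc25a12 larger than 83%.

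Enzymes of the shuttle did not all go one way. Of 8 genes of the shuttle and of citrate metabolism, 3 were higher and 1 was lower, with a median log2 fold change of 0.20. Among all genes counted 100 times or more on average, 22.6% were called higher and 21.7% lower. The cytosolic aminotransferase gene Got1 was 3.95-fold higher (log2 1.98 ± 0.27, adjusted p = 8.15e-12) and the cytosolic malate dehydrogenase gene Mdh1 1.63-fold higher (0.71 ± 0.15, adjusted p = 1.44e-05) by the authors' deposited table. Their mitochondrial counterparts were Got2, 1.32-fold higher (0.40 ± 0.15, adjusted p = 0.0289), and Mdh2, 1.75-fold lower (-0.81 ± 0.19, adjusted p = 0.000121), in the authors' deposited table. Slc25a1, the citrate exporter that feeds cytosolic acetyl-CoA, was 1.62-fold higher (log2 0.69 ± 0.16, adjusted p = 7.91e-05, the authors' deposited table), whereas the citrate-cleaving enzyme gene Acly had -0.25 ± 0.17 without a call. The dicarboxylate carrier Slc25a10 had a log2 fold change of -0.03 ± 0.19 and an adjusted p of 0.934, so no call, by the authors' deposited table.

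Other amino acid carriers were not called, with the exception of Slc25a38. This carrier imports glycine for heme synthesis and was 1.46-fold higher (log2 0.55 ± 0.19, adjusted p = 0.0117, the authors' deposited table). The ornithine carrier Slc25a15, with a mean count of 638, had a log2 fold change of 0.02 ± 0.25 in the authors' deposited table. The glutamate carrier Slc25a22 had -0.27 ± 0.20, the branched-chain amino acid carrier Slc25a44 -0.14 ± 0.20 and the basic amino acid carrier Slc25a29 -0.30 ± 0.36 in the authors' deposited table, none of them called. In this group of 9 carriers the median log2 fold change was -0.14, while 3 members were higher and none was lower. Of all genes, 17.1% were called higher and 16.4% lower.

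Iron and glutathione carriers all had fold changes above 0, and 3 of 4 were higher. As background, 22.6% of all genes counted 100 times or more on average were called higher and 21.7% lower. Under the Benjamini-Yekutieli adjustment 2 of these carriers stayed higher, and Slc25a28 lost its call (adjusted p = 0.1). Slc25a40 (ENSMUSG00000054099, chromosome 5, 8422850 to 8454797), a glutathione importer, was 4.22-fold higher (log2 2.08 ± 0.25, adjusted p = 4.54e-15, the authors' deposited table) and ranked 31st in fold change among all genes with an adjusted p-value. Its paralog Slc25a39, of the same function, had 0.30 ± 0.19 and was not called (adjusted p = 0.214) in the authors' deposited table. Over both populations Slc25a39 was the more abundant, with 901 normalised counts per kilobase against 30.2 for Slc25a40. Slc25a37, mitoferrin 1 (ENSMUSG00000034248, chromosome 14, 69241848 to 69285112), was 2.12-fold higher (log2 1.08 ± 0.19, adjusted p = 2.31e-07, the authors' deposited table). Its exons overlap Gm31748 over 381 bases, 6.33% of their length, and the antisense gene Gm27223 over 92 bases, both on the opposite strand. Slc25a28, mitoferrin 2, was 1.47-fold higher (log2 0.56 ± 0.18, adjusted p = 0.00741, the authors' deposited table). The mitoferrins bring iron into the matrix for heme and iron-sulfur clusters.

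Genes of iron and glutathione metabolism were called in both directions. Of 15 genes of mitochondrial iron-sulfur and heme synthesis, 4 were higher and 4 lower, with a median log2 fold change of 0.26, beside 22.6% higher and 21.7% lower among all genes counted 100 times or more on average, so the list's counts lie near the background. Among them the heme synthesis gene Cpox had 0.97 ± 0.19 (adjusted p = 4.15e-06) and the ferredoxin reductase gene Fdxr 1.14 ± 0.34 (adjusted p = 0.00404), while the iron-sulfur cochaperone gene Hscb had -0.66 ± 0.16 (adjusted p = 0.00026) and Lyrm4, a subunit of the cysteine desulfurase complex, -0.66 ± 0.19 (adjusted p = 0.00274) by the authors' deposited table. Of 8 genes listed for glutathione synthesis and use, 3 were higher and 2 lower, beside the same 22.6% and 21.7% of all genes. The 3 include Prdx3, which is reduced by thioredoxin and so is no glutathione gene in the strict sense. The lipid peroxidase gene Gpx4 had 0.88 ± 0.17 (adjusted p = 5.96e-06) and Prdx3, a mitochondrial peroxidase reduced by thioredoxin, 0.64 ± 0.14 (adjusted p = 6.84e-05), against -0.84 ± 0.20 (adjusted p = 0.000141) for the glutathione reductase gene Gsr and -0.75 ± 0.19 (adjusted p = 0.000707) for Gclc, which makes the glutathione precursor in the cytosol, in the authors' deposited table.

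Carriers of other nucleotides, coenzymes and vitamins had 3 higher and 2 lower of 9. At mean counts of at least 100, 22.6% of all genes were called higher and 21.7% lower. The pyrimidine nucleotide carriers went apart. Slc25a33 (ENSMUSG00000028982, chromosome 4, 149744036 to 149774277) was 1.6-fold lower (log2 -0.68 ± 0.17, adjusted p = 0.000605, the authors' deposited table). Slc25a36 (ENSMUSG00000032449, chromosome 9, 97074961 to 97111157) was 1.35-fold higher (log2 0.43 ± 0.14, adjusted p = 0.00819, the authors' deposited table). Per kilobase their levels over both populations were alike, 244 normalised counts for Slc25a33 and 270 for Slc25a36. Exons of Slc25a33 overlap the antisense gene Gm13068 over 281 bases, 14.9% of its exon length. Slc25a17, a carrier of coenzyme A and other cofactors in the peroxisome and not in the mitochondrion, was 1.76-fold higher (log2 0.82 ± 0.15, adjusted p = 8.11e-07, the authors' deposited table). Slc25a16, linked to mitochondrial coenzyme A, was 1.51-fold higher (log2 0.59 ± 0.21, adjusted p = 0.0149, the authors' deposited table), and the coenzyme A carrier Slc25a42 had -0.42 ± 0.27 without a call. Slc25a32, the mitochondrial folate carrier, was 1.27-fold lower (log2 -0.35 ± 0.15, adjusted p = 0.0481, the authors' deposited table). It was the last member inside the threshold, and the first outside was Slc25a27, at 0.0515 by the authors' deposited table. The NAD carrier Slc25a51 had 0.41 ± 0.18 (adjusted p = 0.0634) and the S-adenosylmethionine carrier Slc25a26 -0.37 ± 0.22 in the authors' deposited table, with no call.

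The remaining carriers gave 2 calls. Slc25a30, related to the uncoupling proteins, was 1.61-fold higher (log2 0.69 ± 0.17, adjusted p = 0.000311, the authors' deposited table). Its relatives Slc25a27 and Slc25a14 had 0.98 ± 0.41 and -0.46 ± 0.24 in the authors' deposited table and were not called. Slc25a46, a protein of the outer mitochondrial membrane that acts in mitochondrial dynamics, was 1.36-fold higher (log2 0.44 ± 0.14, adjusted p = 0.00687, the authors' deposited table), and its exons overlap B930094E09Rik on the opposite strand over 383 bases. Slc25a20, which carries acylcarnitines into the matrix for fatty acid oxidation, had 0.36 ± 0.21 and was not called (adjusted p = 0.177) in the authors' deposited table. In the list of 10 genes of the carnitine shuttle and long-chain fatty acid oxidation, 2 were higher and 3 lower, with Cpt1c at 0.71 ± 0.15 and Hadhb at -0.73 ± 0.20 in the authors' deposited table. The shares among all genes counted 100 times or more on average were 22.6% higher and 21.7% lower. Slc25a43, Slc25a45, Slc25a53, Slc25a35 and Slc25a47 were not called, at mean counts of 27.4, 56.6, 109, 18.9 and 18.9 by the authors' deposited table.

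**Figure D2:**
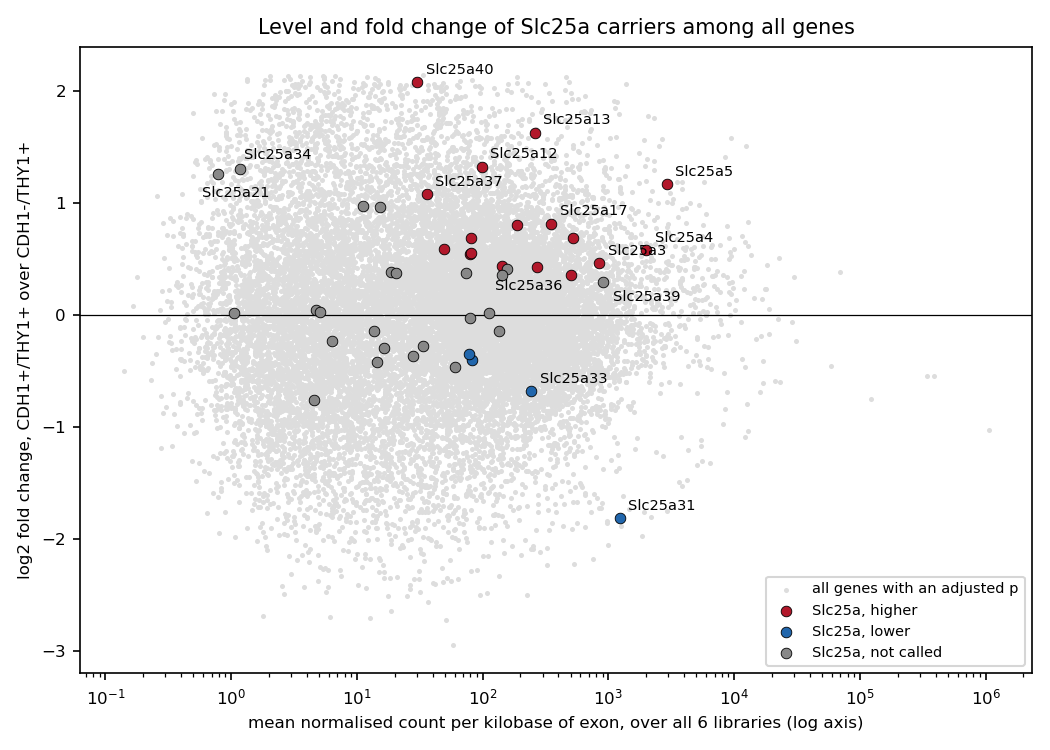
Each grey point is a gene with an adjusted p-value, plotted by its mean normalised count per kilobase of exon over all 6 libraries (log axis) and the log2 ratio of CDH1+/THY1+ to CDH1-/THY1+ cells; coloured points are Slc25a carriers called higher (red) or lower (blue), or not called (dark grey). Slc25a5 and Slc25a4 lie at the right above 0, Slc25a31 at the right below 0 at -1.81, and Slc25a40 at 2.08 with a level of 30.2.

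The family spans a wide range of levels. Its 46 members together held 0.211% of the summed mean counts, and Slc25a5, Slc25a4 and Slc25a3 made up 39.9% of the family's counts. Per kilobase the order over both populations was led by Slc25a5, Slc25a4, Slc25a31, Slc25a39 and Slc25a3, which lay above 95.9% to 99% of all genes. At the low end 6 members had mean counts under 8, few enough for the whole reads of each library to be recovered from the mean. The libraries carry no names and were put in no population, and they are called A to F from the highest size factor to the lowest.

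Slc25a21, an oxodicarboxylate carrier, had 3, 1, 1, 1, 17 and 0 reads in libraries A to F. Slc25a34, a carrier with no substrate assigned here, had 5, 1, 1, 0, 12 and 0 reads in the same order. Library E thus held 73.9% of the reads of Slc25a21 and 63.2% of those of Slc25a34. In the authors' deposited table these genes had log2 fold changes of 1.26 ± 0.63 and 1.30 ± 0.62, and neither was called (adjusted p = 0.11 and 0.0917). Slc25a2, an ornithine carrier, had 2, 1, 11, 11, 8 and 4 reads in libraries A to F and a log2 fold change of -0.76 ± 0.63 in the authors' deposited table, also without a call. Slc25a41 had 9, 5, 8, 4, 6 and 6 reads in the same order. Slc25a48 had 5, 1, 4, 1, 5 and 5 reads, and Slc25a18, a glutamate carrier known from brain, 0, 1, 2, 2, 1 and 0, too few for an adjusted p-value.

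**Figure D3:**
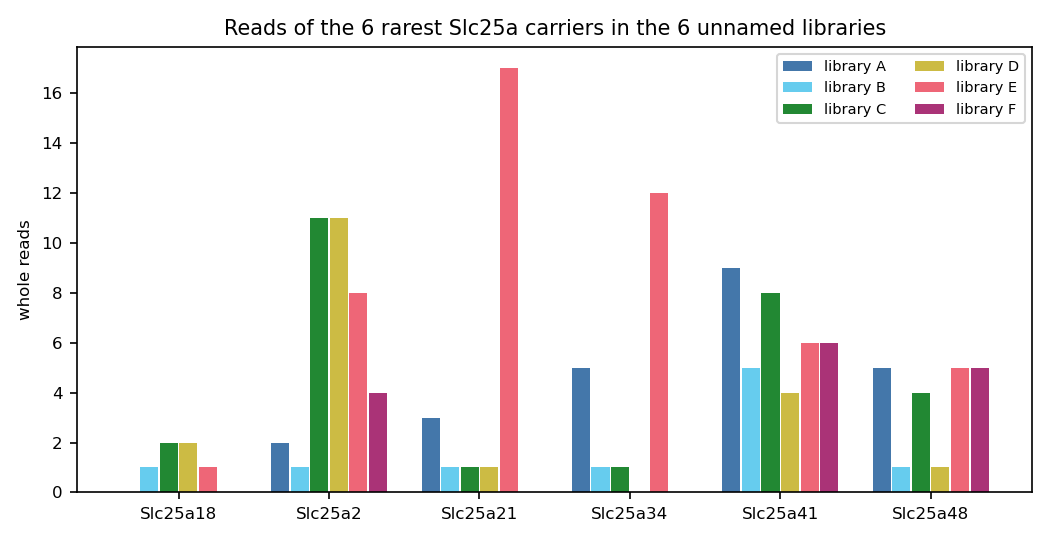
Bars give the whole reads of the 6 members with the lowest mean counts in each of the 6 libraries, A to F, which carry no names and belong to no stated population. Library E stands out for Slc25a21 with 17 reads and for Slc25a34 with 12, while Slc25a41 has 4 to 9 reads in every library.

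Of 13 genes of the TIM22 import route, which brings carriers to the inner membrane, 1 was higher and 2 were lower, with a median log2 fold change of 0.08, beside 17.1% of all genes called higher and 16.4% lower. Tomm20, an outer membrane import receptor, had 0.90 ± 0.17 (adjusted p = 1.65e-06), while Timm29 and Timm8b had -0.56 ± 0.15 (adjusted p = 0.00085) and -0.40 ± 0.13 (adjusted p = 0.00937) in the authors' deposited table. Timm22 itself, the channel of the route, had 0.08 ± 0.14 without a call. Among 20 genes of other inner membrane transport, 6 were higher and 2 lower, led by the serine transporter gene Sfxn1 at 2.09 ± 0.19 (adjusted p = 5.57e-25) and by Mpc2, a subunit of the pyruvate carrier, at -1.19 ± 0.18 (adjusted p = 4.23e-10) by the authors' deposited table. The other subunit of that carrier, Mpc1, had 0.04 ± 0.22 and was not called. Of the 3 outer membrane channel genes, through which carrier substrates pass, Vdac1 was 3.6-fold higher (log2 1.85 ± 0.21, adjusted p = 8.68e-17), Vdac2 1.74-fold higher (0.80 ± 0.16, adjusted p = 1.37e-05) and Vdac3 at -0.02 ± 0.13 without a call in the authors' deposited table. Family members under other symbols were not called: Mtch1 had -0.03 ± 0.21 and Mtch2 0.13 ± 0.12, while the mean counts of Ucp1 and Ucp3 were 2.02 and 1.35 by the authors' deposited table, and Ucp2 was not analysed here.

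**Figure D4:**
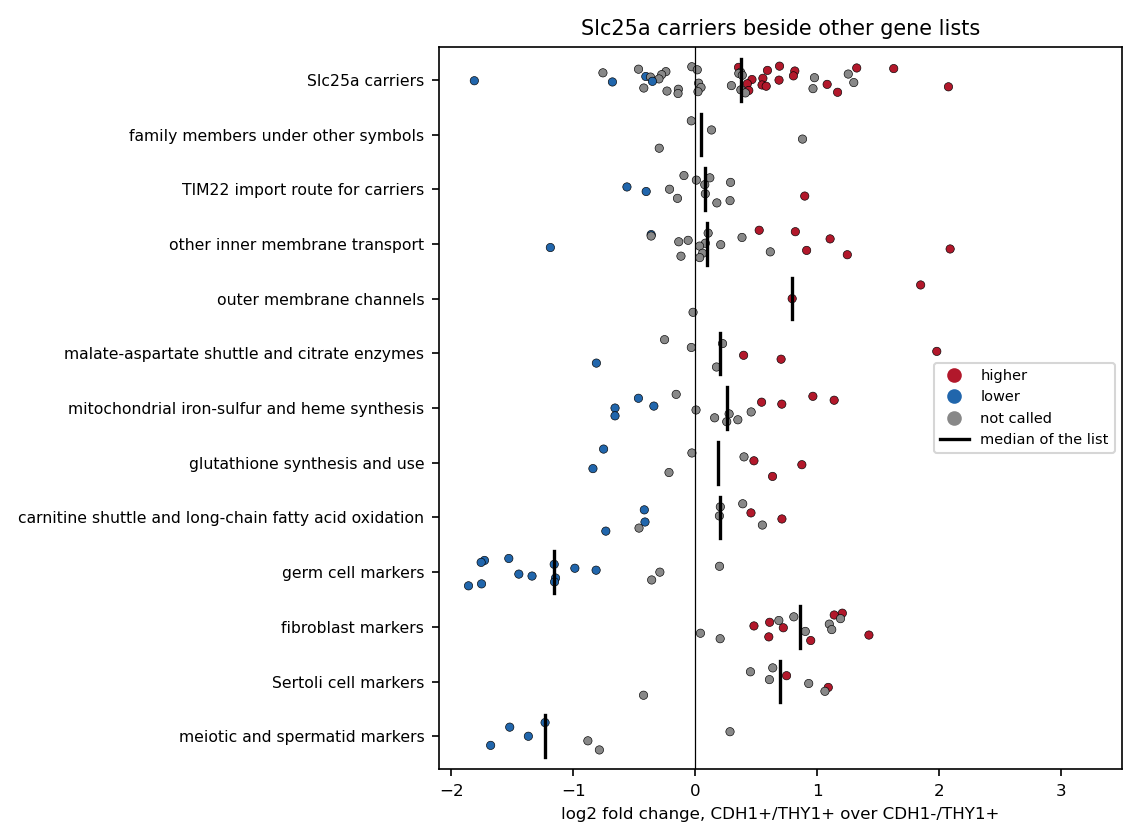
Each point is a gene, by its log2 ratio of CDH1+/THY1+ to CDH1-/THY1+ cells in the authors' deposited table; rows are the Slc25a carriers and 12 other gene lists, colours give the call at an adjusted p-value under 0.05, and black bars are list medians. The median is 0.37 for the carriers, -1.15 for germ cell markers and 0.86 for fibroblast markers.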

How the data were processed

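RNA had been measured by strand-specific total RNA sequencing after removal of ribosomal RNA, per the labels' protocols. The submitters' processing notes list DESeq2 1.12.3 with R 3.3.1, Subread 1.5.0-p3 with featureCounts, TopHat2 2.1.1 and Trimmomatic 0.32, and the build GRCm38.p4. The annotation release, strand setting and model formula are not given in the sources used here. The deposited mean count is a signal, averaged over all 6 libraries after division by size factors. Deposited fold changes and their standard errors are log2 values, the deposited Wald statistic is a score, and each gene has a deposited p-value and adjusted p-value. Standard errors did not exceed 0.639 even at the lowest counts, a sign of fold changes shrunken towards 0, so changes of low genes are understated. An adjusted p-value was empty in 3221 rows.

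Symbols, positions and merged exon lengths came from GENCODE M21 (GRCm38), matched on Ensembl identifiers, which gave a symbol for 22317 rows and none for 115. Reads per library were recovered for mean counts under 8: the differences between low mean counts gave the amount of 1 read in each library, and a single set of whole reads matched each of these members within 3e-09. On simulated data this gave the right reads for 60 of 60 genes. Each standard error was ranked within the 200 genes closest in mean count. Promoter windows came from RefSeq (GRCm38.p6). Python 3.11.15, pandas 2.3.3 and matplotlib 3.10.9 were used. No protein comparison was run, since no protein table was used here.

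Members, substrate groups and lists were chosen with earlier results of these data known. All members but 1, which is not reported here singly and stays in the counts, are named, with the most significant 4 or fewer called genes of each other list and, for markers, those of highest mean count. Further genes were named after their values were seen: Acly, Timm22, Mpc1, Vdac3, the family members under other symbols, Amh, Sox9 and Wt1. Beyond their culture names, ages and strain labels, nothing says that the samples of a population came from separate animals. The p-values therefore measure the spread between these samples. Alternatives were other adjustments, thresholds, a mean count of at least 100 and a wider family.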

Additional observations from a re-analysis of the deposited data

How the results depend on the processing

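Of 15 recomputed family values, 10 stayed close to those reported. The rule was loose: 14 higher members counted as close to 17, and 3 lower members as close to 4. Asking for a mean count of at least 100 could not change the number of calls, since every called member passed it. Adding the Ucp and Mtch genes left the number of calls as it was, since none of those genes was called. Counts of calls have no direction, and the recomputed family fold changes stayed positive. The Benjamini-Yekutieli adjustment over 22330 genes left 9 of the members called higher and 2 of those called lower, Slc25a31 and Slc25a33. A threshold of 0.01 left 2 lower members, and asking for at least 2-fold left 5 higher and 1 lower. The Benjamini-Yekutieli adjustment and the threshold of 0.01 ask for stronger evidence by construction. The 2-fold setting asks for a larger change at the same threshold of adjusted p. Slc25a32 lost its call when the Benjamini-Hochberg adjustment ran over all genes with a p-value. The median log2 fold change was 0.42 at a mean count of at least 100 and 0.37 with the Ucp and Mtch genes added, against 0.37. A mean of the members' log2 fold changes weighted by the inverse squared standard error was 0.31. No paired analysis was possible because the columns hold no value per named library, and for the same reason leaving out each library was not run. Depth limits the 14 members with a mean count under 100, whose standard errors reached 0.639.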
